A study of Mus musculus with 6 samples.

Results

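The genes described here encode the enzymes and helpers that turn newly made collagen chains into mature collagen: the prolyl 4-hydroxylase subunits P4ha1, P4ha2 and P4ha3, the lysyl hydroxylases Plod1, Plod2 and Plod3, the chaperones Serpinh1 and Fkbp10, and Pcolce and Bmp1, which act in the removal of the procollagen propeptide. They were listed by role, and each was represented by the probe set that carried its symbol alone and had the highest mean signal. Of the 10 listed genes, 8 had such a probe set, out of 30184 genes with a probe set of their own on the array. Fkbp10 was assigned to none in the table used here. The only probe set of Plod3 also carried the symbol Mir702, so no value was assigned to Plod3.

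Male C57BL/6 mice underwent ligation of the left anterior descending coronary artery (MI) or a sham operation without ligation. After 4 weeks, total RNA of the peri-infarct region in MI and of the matching region in sham was hybridized to 6 Affymetrix mouse transcriptome arrays, 3 per group. Neither the labels nor the methods state that the 3 samples of a group were 3 different hearts, so the p-values below measure only the spread between these samples, which may be technical. The comparison asked how the genes of collagen processing differed between peri-infarct tissue, which in this model becomes fibrotic, and tissue from sham hearts.

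Procollagen chains are modified inside the endoplasmic reticulum before they fold. Prolyl 4-hydroxylase, formed by a P4ha subunit and the partner subunit P4hb, makes the 4-hydroxyproline that holds the triple helix together at body temperature. Lysyl hydroxylases make the hydroxylysine from which stable cross-links later form, HSP47 (Serpinh1) and FKBP65 (Fkbp10) assist folding, and after secretion the procollagen C-proteinase Bmp1, helped by its enhancer Pcolce, cuts off the C-terminal propeptide so that fibrils can assemble.

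Values are log2 signals as deposited, and a change is the MI mean minus the sham mean on that scale. The 32979 probe sets whose mean signal reached 4.36, the median of all transcript probe sets, were compared with limma, and a gene was called at a Benjamini-Hochberg adjusted p under 0.05. Median signals over all probe sets were 4.43 to 4.52 per array, and 23 background control probe sets had a maximum of 5.12 to 6.08 per array. All 8 genes passed the filter on low signal. MI 3 stood apart from the other MI arrays: it correlated with them at 0.982 and 0.977 over all probe sets, where MI 1 and MI 2 correlated at 0.992. The calls changed when any 1 array was left out. limma called 2180 probe sets with all arrays, 4687 without MI 3, 327 without sham 1 and 61 without MI 2. It called 0 without MI 1, sham 2 or sham 3, where 6013, 6090 and 6340 had an unadjusted p under 0.05. Leaving out an array also lowers the number of arrays in the fit, and the part of this in the lost calls was not tested.

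Of the 8 genes, 3 rose in the MI hearts: P4ha3, Plod2 and Bmp1. None was called lower. Over all probe sets tested, 2.97% were called higher and 3.64% lower by limma. Pcolce had all MI arrays above all sham arrays but was not called, P4ha1 and Serpinh1 had overlapping groups with positive mean changes, P4ha2 was level between the groups, and Plod1 had a negative mean change with overlapping groups. In 4 of the 8 genes the lowest MI array was above the highest sham array, which was the case for 15.0% of all probe sets tested. The median change of the 8 genes was 0.74, beside 0.01 for all probe sets tested.

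**Figure D1:**
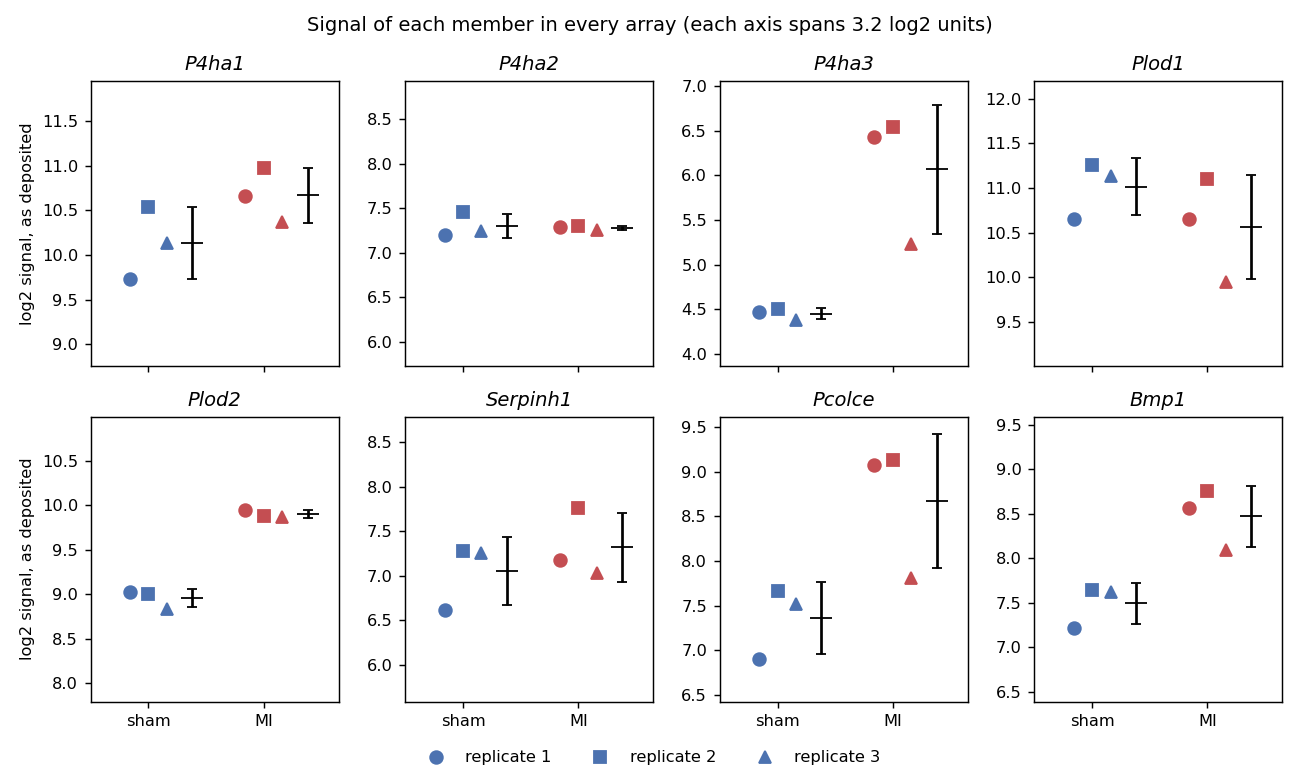
Log2 signal of each gene (vertical axis) in the sham arrays (blue) and the MI arrays (red), with the replicate number as the shape of the point and the group mean ± SD in black. The MI points of Plod2 lie within 0.1 of each other, from 9.87 to 9.95, while those of P4ha3 run from 5.23 to 6.54 and those of Pcolce from 7.81 to 9.14.

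Among the prolyl 4-hydroxylase subunits, P4ha3 was called higher and P4ha1 and P4ha2 were not. P4ha3, the subunit that was described last and has the lowest expression in most tissues, read 4.47, 4.50 and 4.38 in sham 1 to 3 and 6.43, 6.54 and 5.23 in MI 1 to 3. Every MI array was above every sham array, and MI 3 was well below the other MI arrays. The change was 1.62 with a standard error (SE) of 0.35 (3.07-fold, adjusted p = 0.0498 from limma, n = 3 per group), larger than in 98.5% of the probe sets tested. All sham signals of P4ha3 and that of MI 3 were at or below the highest background control of their array, so the change is understated if background adds to the signal. The call held without MI 3 (change 2.04, adjusted p = 0.00117 from limma) and was lost without any other array, with an adjusted p of 0.123 without sham 1, 0.155 without sham 2 or sham 3, 0.163 without MI 1 and 0.125 without MI 2. With the arrays centred on their medians it was 0.0554 and after quantile normalization 0.0633 (limma), and over all alternatives it ran from 0.000849 to 0.163.

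P4ha1, the main subunit of most cell types, read 9.73, 10.54 and 10.14 in sham and 10.67, 10.98 and 10.36 in MI. Its groups overlapped, because MI 3 was below sham 2. The change was 0.53 (95% interval -0.07 to 1.14, adjusted p = 0.251 from limma), and with 1 array left out it ran from 0.33 without sham 1 to 0.74 without sham 2 and was never called. P4ha2, the subunit that is prominent in cartilage and bone cells, read 7.20, 7.46 and 7.25 in sham and 7.29, 7.30 and 7.25 in MI. Its MI values lay inside the range of its sham values, with a change of -0.02 (95% interval -0.27 to 0.23, adjusted p = 0.927 from limma). This interval leaves out a 1.45-fold change such as the mean difference of P4ha1, but P4ha2 had the opposite sign, 0.06, without sham 2.

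The sequences upstream of P4ha3 and P4ha2 are shown because these paralogues were the most and the least changed of the family. They come from the RefSeq promoter table of GRCm38.p6, which held 7 of the 10 genes, and were cut to the bases that lie before the gene's own span: 219 bases at chr7:100285270-100285488 (plus strand) for P4ha3 and 250 bases at chr11:54100674-54100923 (plus strand) for P4ha2. Capitals mark matches, on either strand, to the TATA box (TATAAA), the CCAAT box (CCAAT), the GC box (GGGCGG), the hypoxia response core (ACGTG or GCGTG), the heat shock element core (GAANNTTC), the SMAD box (CAGAC) or the AP-1 site (TGAGTCA or TGACTCA).
P4ha3: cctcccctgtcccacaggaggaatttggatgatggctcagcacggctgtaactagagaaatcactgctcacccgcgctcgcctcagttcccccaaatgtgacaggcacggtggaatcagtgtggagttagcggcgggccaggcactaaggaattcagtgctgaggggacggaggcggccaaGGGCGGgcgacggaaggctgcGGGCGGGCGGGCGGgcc
P4ha2: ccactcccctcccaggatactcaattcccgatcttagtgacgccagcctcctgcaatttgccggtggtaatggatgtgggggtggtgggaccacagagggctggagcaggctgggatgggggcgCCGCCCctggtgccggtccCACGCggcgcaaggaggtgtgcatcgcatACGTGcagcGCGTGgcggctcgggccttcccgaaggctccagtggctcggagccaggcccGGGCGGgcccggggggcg
The P4ha3 window held 4 GC boxes, of which 3 overlap in a row, and no match to the other motifs. The P4ha2 window held 2 GC boxes and 3 hypoxia response cores. A GC box was present in 28.3% of all RefSeq promoter windows of 219 bases and in 32.7% of those of 250 bases, and a hypoxia response core in 34.5% and 38.6%, so each motif is common and a match is only a description of the letters. For these shares the windows of 219 bases left out the 31 bases nearest the listed start, and no window was trimmed to its gene's span.

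P4hb, which encodes the partner subunit shared by all P4ha proteins and also acts as a protein disulphide isomerase, was called higher. It read 13.16, 12.91 and 13.06 in sham and 13.67, 13.55 and 13.46 in MI, so the groups did not overlap. Its change was 0.52 (SE 0.11, adjusted p = 0.0464 from limma).

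Of the lysyl hydroxylases, Plod2 was called, with the smallest spread among the MI arrays of the 3 genes called. Plod2 acts on lysines of the collagen telopeptides, the ends from which the cross-links typical of fibrotic tissue are built. It read 9.03, 9.01 and 8.84 in sham 1 to 3 and 9.95, 9.88 and 9.87 in MI 1 to 3. All MI arrays were above all sham arrays, and MI 3 did not stand apart. The change was 0.94 (SE 0.09, 1.92-fold, adjusted p = 0.0131 from limma), with an SD of 0.05 in MI and 0.10 in sham (n = 3 each). Leaving out 1 array kept the change between 0.88 and 0.98. The call held without sham 1 and without MI 3, while the adjusted p was 0.0831 without sham 2, 0.0720 without sham 3, 0.0800 without MI 1 and 0.0562 without MI 2 (limma), and over all alternatives it ran from 0.000632 to 0.0883.

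Plod1, which hydroxylates lysines of the triple helix, read 10.65, 11.26 and 11.13 in sham and 10.65, 11.10 and 9.94 in MI. MI 3 was lower than every other array, and the other MI arrays lay within the sham range. The change of -0.45 (95% interval -1.22 to 0.33) was not called (adjusted p = 0.437 from limma), and with 1 array left out it ran from -0.71 without MI 2 to -0.13 without MI 3, never called. The probe set that carries the symbols of both Plod3 and Mir702, and that belongs to neither here, read 6.90, 7.38 and 7.33 in sham and 7.76, 7.95 and 7.24 in MI, with overlapping groups (change 0.44, adjusted p = 0.284 from limma).

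Because an effect called in one paralogue and not in another does not show that they differ, paralogues were also set against each other within each array. The log2 difference P4ha3 minus P4ha2 was 1.64 higher in MI than in sham (SD 0.70 in MI and 0.12 in sham, n = 3 each), and P4ha3 minus P4ha1 was 1.09 higher (SD 0.47 and 0.40). Since all sham signals of P4ha3 and that of MI 3 were at or below the highest background control, the sizes of these 2 differences are not exact. For P4ha2 minus P4ha1 the difference between MI and sham was -0.55 (SD 0.28 in both groups). Plod2 minus Plod1 was 1.39 higher (SD 0.58 and 0.38). In each of these 4 pairs the MI and sham arrays did not overlap, and the exact permutation test gave p = 0.1 (two-sided, adjusted p = 0.1 over the 4 pairs), the smallest that 3 against 3 arrays allow, so the design cannot pass 0.05 here. Since the groups did not overlap, leaving out 1 array could not change the sign, only the size. The size then ran from 1.41 to 2.04 for P4ha3 minus P4ha2 and from 0.90 to 1.35 for P4ha3 minus P4ha1. It ran from -0.69 to -0.40 for P4ha2 minus P4ha1 and from 1.09 to 1.67 for Plod2 minus Plod1.

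**Figure D2:**
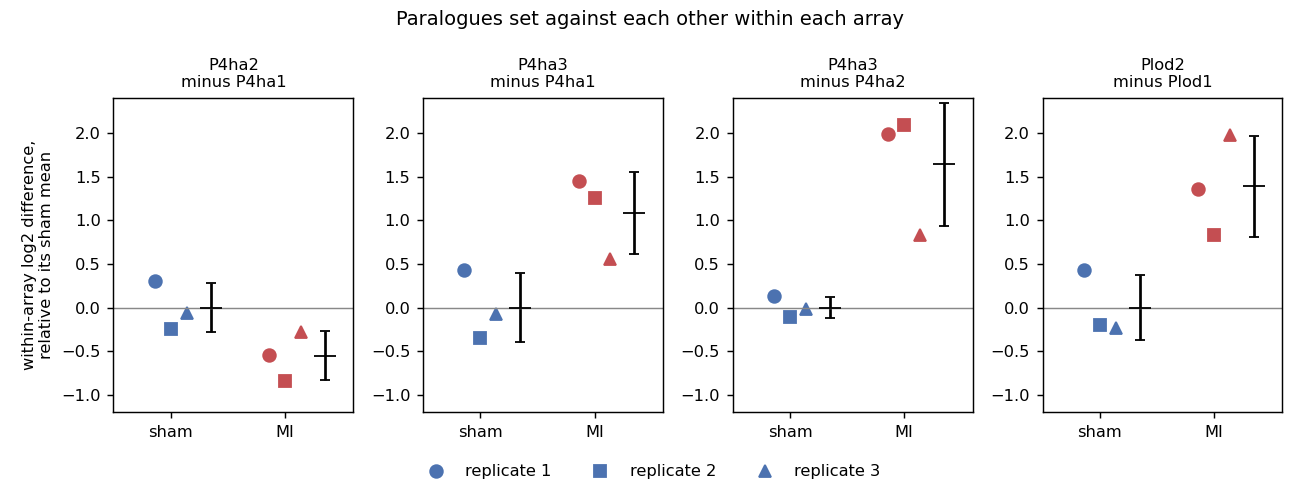
Within-array log2 difference between paralogues, shown relative to its sham mean (vertical axis), in the sham arrays (blue) and the MI arrays (red), with the group mean ± SD in black. The MI arrays lie above the sham arrays for P4ha3 against either paralogue and for Plod2 against Plod1, and below them for P4ha2 against P4ha1.

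Serpinh1, which encodes the collagen-specific chaperone HSP47, was not called. It read 6.62, 7.28 and 7.26 in sham 1 to 3 and 7.18, 7.76 and 7.03 in MI 1 to 3. MI 2 was the highest array, and MI 1 and MI 3 lay between sham 1 and the other sham arrays. The change was 0.27 (95% interval -0.37 to 0.91, adjusted p = 0.570 from limma), and it was 0.05 without sham 1 or without MI 2. A further probe set of Serpinh1 had signals of 4.65 to 5.13 in sham and 4.80 to 5.17 in MI, all at or below the highest background control, with a change of 0.14. The upper end of the interval, 0.91, is below the change of 3.75 to 4.14 of the collagen chains that HSP47 binds, given below.

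The upstream sequence of Serpinh1 is shown because HSP47 is also a heat shock protein and its gene was not called. It covers chr7:99353240-99353489 (minus strand, GRCm38.p6, RefSeq), with capitals for the same motifs.
Serpinh1: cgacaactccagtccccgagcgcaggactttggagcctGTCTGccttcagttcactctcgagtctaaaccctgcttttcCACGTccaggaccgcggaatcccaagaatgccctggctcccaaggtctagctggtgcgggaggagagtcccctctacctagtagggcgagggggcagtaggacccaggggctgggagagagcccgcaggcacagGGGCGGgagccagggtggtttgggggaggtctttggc
It held 1 GC box, 1 hypoxia response core and 1 SMAD box, a motif found in 42.2% of all promoter windows of this length. The letters of the heat shock element core, present in 6.69% of them, were not in this window.

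Both genes of propeptide removal had all MI arrays above all sham arrays. Bmp1, the procollagen C-proteinase, which also cuts the lysyl oxidase precursor, read 7.22, 7.64 and 7.62 in sham and 8.56, 8.76 and 8.09 in MI. MI 3 was the lowest of the MI arrays and sham 1 the lowest of the sham arrays. The change was 0.98 (SE 0.21, 1.97-fold, adjusted p = 0.0495 from limma). With 1 array left out the change stayed between 0.83 and 1.17. The call held without MI 3 (change 1.17, adjusted p = 0.0136 from limma) and was lost without sham 1 (adjusted p = 0.122), sham 2 (0.135), sham 3 (0.133), MI 1 (0.164) or MI 2 (0.124). The adjusted p was 0.0600 with the arrays centred on their medians and 0.0631 after quantile normalization (limma), and over all alternatives it ran from 0.00211 to 0.164.

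Pcolce, the procollagen C-proteinase enhancer, read 6.90, 7.66 and 7.52 in sham and 9.08, 9.14 and 7.81 in MI. MI 1 and MI 2 were more than 1 log2 unit above every sham array, whereas MI 3 was just above sham 2. The change of 1.31 (SE 0.40, 2.49-fold, 95% interval 0.33 to 2.30) was not called with all arrays (adjusted p = 0.113 from limma). Without MI 3 it was 1.75 and was called (adjusted p = 0.0126 from limma), as it was with array weights (1.56, adjusted p = 0.00340 from limma). The weights were 5.63 for MI 1, 0.65 for MI 2 and 0.23 for MI 3, so the MI side of that fit rests mostly on MI 1. The same fit gave the lowest adjusted p of P4ha3, Plod2 and Bmp1 among the alternatives. Over all alternatives the adjusted p of Pcolce ran from 0.00340 to 0.293.

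**Figure D3:**
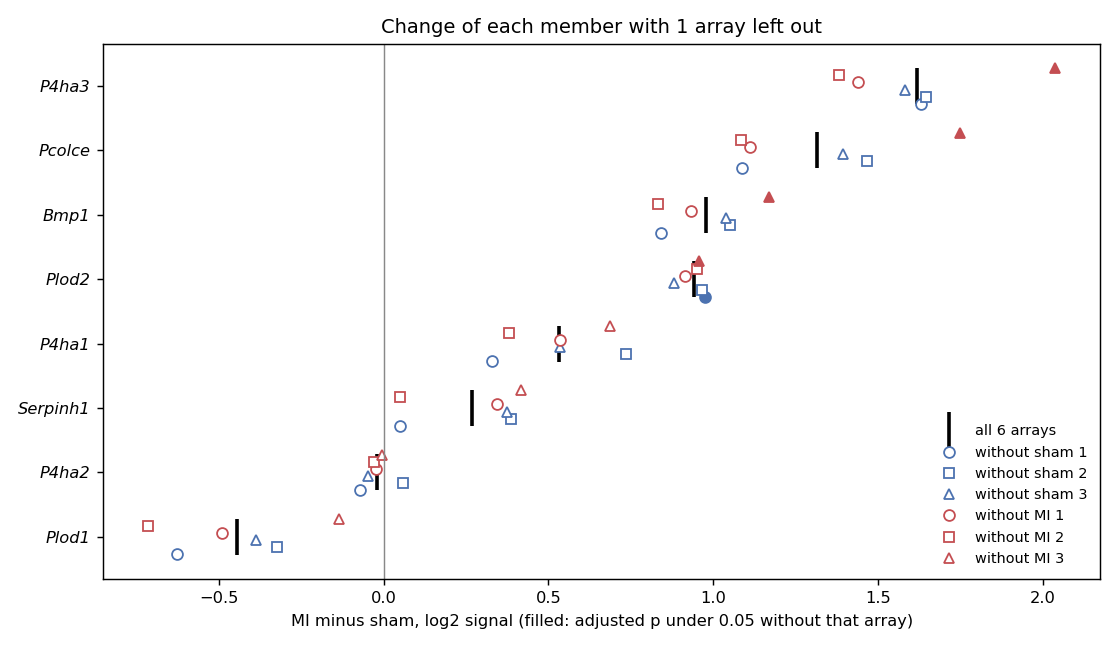
Change of each gene, MI minus sham in log2 signal (horizontal axis), with all 6 arrays (black bar) and with each array left out in turn (blue without a sham array, red without an MI array, filled where the adjusted p from limma was under 0.05). Plod2 stays between 0.88 and 0.98, P4ha3 runs from 1.38 to 2.04, and P4ha2 crosses 0.

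Within the groups, MI 3 was the lowest MI array in all 8, as in 37.5% of all probe sets tested, and sham 1 was the lowest sham array in 6 of the 8, as in 37.1% of all probe sets tested. The difference of MI 3 from the mean of MI 1 and MI 2 was -1.30 for Pcolce, -1.25 for P4ha3 and -0.93 for Plod1, but -0.05 for Plod2 and -0.04 for P4ha2. Plod2 and P4ha2 thus had the smallest spread among the MI arrays. MI 3 was the lowest MI array for the collagen chains too: relative to their sham mean, Col1a1, Col1a2 and Col3a1 averaged 4.38 in MI 1, 4.47 in MI 2 and 2.89 in MI 3.

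The collagen chains rose more than the genes that process them. Col1a1, Col1a2 and Col3a1, the chains of the main scar collagens, had changes of 3.85, 3.75 and 4.14 (adjusted p = 0.0205, 0.0196 and 0.0125 from limma). The mean of the 8 genes, relative to its sham mean, was 0.76 in MI 1, 0.96 in MI 2 and 0.23 in MI 3, and from -0.24 to 0.20 in the sham arrays. The within-array difference between the mean of the collagen chains and the mean of the 8 genes was 3.27 higher in MI than in sham (SD 0.52 in MI and 0.24 in sham, n = 3 each), with the MI arrays all above the sham arrays. Leaving out any 1 array kept it between 3.09 and 3.57. No p is given for it, since it is a score over genes chosen together.

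Further genes of collagen making were listed by role, as hydroxylases, chaperones, glycosyltransferases, export factors and propeptidases. Of 24 such genes, 20 were tested, 3 were called higher and none lower by limma, with a median change of 0.40. Beside P4hb these were Pcolce2, a further C-proteinase enhancer, and Fkbp7, a prolyl isomerase of the endoplasmic reticulum. Pcolce2 read 8.17, 8.28 and 8.42 in sham and 10.48, 10.64 and 9.56 in MI (change 1.94, SE 0.29, adjusted p = 0.0235 from limma). It was thus called where Pcolce was not, with MI 3 again the lowest of the MI arrays. Fkbp7 read 7.47, 7.53 and 7.40 in sham and 8.27, 8.59 and 8.61 in MI (change 1.02, SE 0.12, adjusted p = 0.0163 from limma), and in this gene MI 3 was the highest array.

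None of the genes listed under prolyl 3-hydroxylation was called, and P3h4 was the only one of them with a negative mean change. P3h4 is counted with them here, although it is not itself an enzyme of this reaction. The change was 1.96 for P3h2 (adjusted p = 0.109 from limma) and 0.97 for P3h3 (0.0574), with every MI array above every sham array, and -0.54 for P3h4 (0.0704), with every MI array below every sham array. The groups overlapped for P3h1 (0.31, adjusted p = 0.253 from limma) and Crtap (0.48, 0.555). The N-propeptide protease Adamts3 had a change of -0.35 (adjusted p = 0.132 from limma), with every MI array below every sham array. Of the 23 genes of this list with a probe set, 10 had every MI array above every sham array, including Tll1, which was not tested. That order held for 15.0% of all probe sets tested. The opposite order held for 3 of the 23, and its share over all probe sets was not computed. The calls of this list also changed when any 1 array was left out, with 9 genes called higher by limma without MI 3 and none without any other array.

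**Figure D4:**
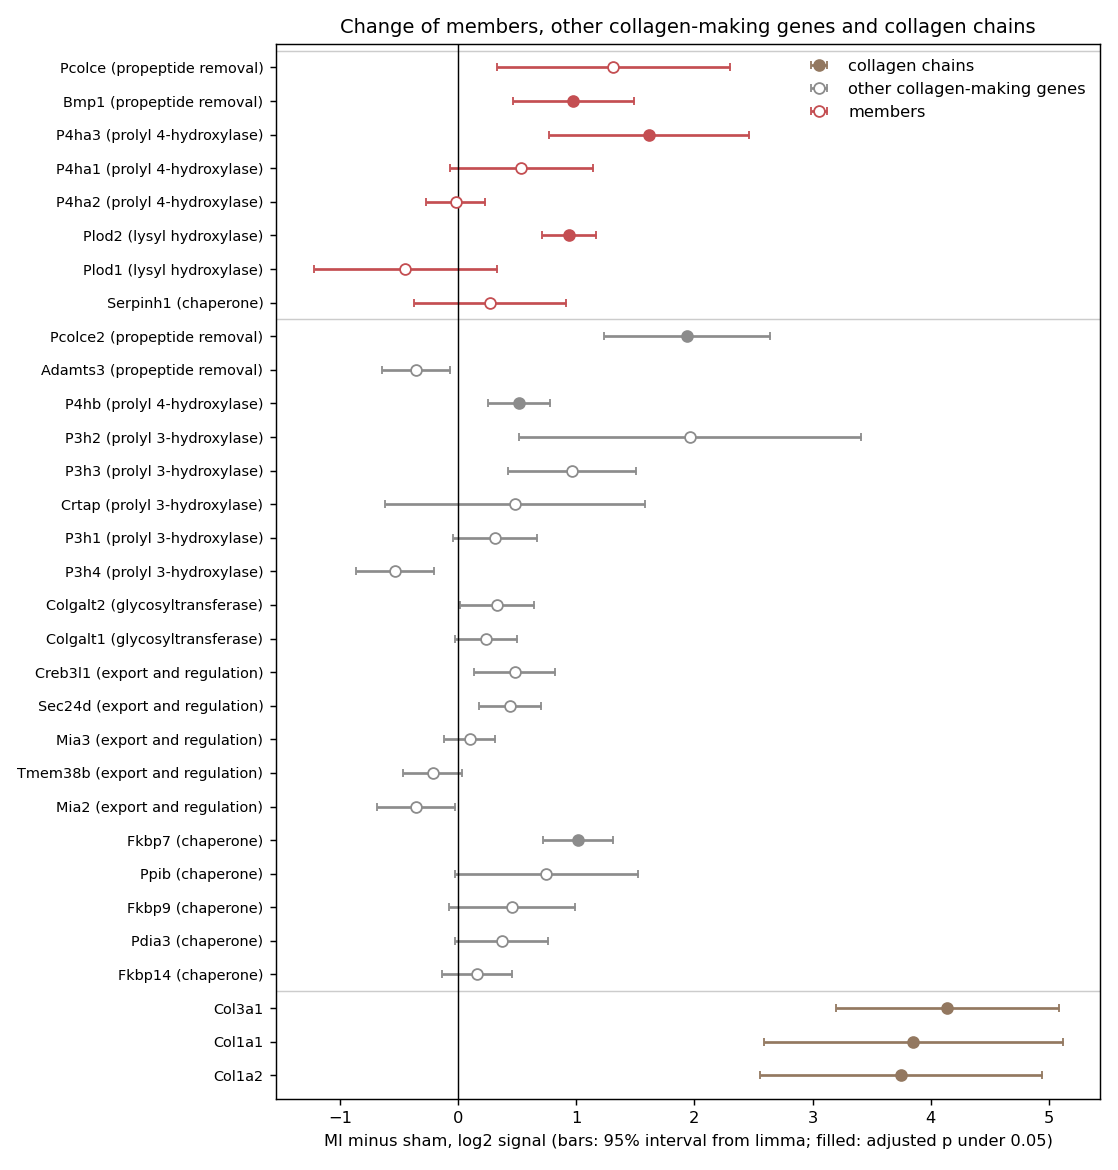
Change of the 8 genes (red), the other collagen-making genes tested (grey) and 3 collagen chains (brown), as MI minus sham in log2 signal with the 95% interval from limma (horizontal axis), filled where the adjusted p was under 0.05. The 8 genes run from -0.45 to 1.62 and the collagen chains from 3.75 to 4.14.

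The tissue held RNA of several cell types, and fewer cells of a type and less RNA per cell cannot be told apart in such samples. Fibroblasts are the main source of fibrillar collagen, and 5 of 6 tested fibroblast markers were called higher, with a mean log2 signal of 10.31 to 10.63 in sham and 12.30 to 13.01 in MI. The called ones were Dcn, Lum, Dpt, Fbln1 and Col1a1. Tcf21 was not called (change 0.40, adjusted p = 0.356 from limma) and its groups overlapped. All 8 cardiomyocyte markers were measured, with a mean of 16.63 to 16.66 in sham and 16.32 to 16.46 in MI, and none was called. All 8 had a negative change, where 52.0% of all probe sets tested had a positive one. In 6 of the 8 every MI array was below every sham array, but the share of all probe sets with that order was not computed. Myh6, Tnnt2 and Pln had group means of 19.6 to 19.9, and whether signals this high could still change was not tested. Of 6 macrophage markers 2 were called higher, Adgre1 and Mrc1, and the mean was 7.83 to 8.30 in sham and 8.50 to 9.21 in MI. Cd163 went the other way without being called (change -0.52, adjusted p = 0.216 from limma), with every MI array below every sham array. No gene was called among 5 endothelial and 6 smooth muscle or pericyte markers. On the lymphocyte list, 1 of 2 tested markers was called higher. This was Ptprc (change 1.35, adjusted p = 0.0151 from limma), which is not specific to lymphocytes. Cd79a was not called (0.16, adjusted p = 0.391 from limma). Cd79a and the untested Cd3e and Ms4a1 were at or below the highest background control in every array. For skeletal muscle, 1 of 3 tested markers was called higher, Tnnt3, whose sham signals were all at or below that control. The part of these shifts in the changes of P4ha3, Plod2, Bmp1 and Pcolce was not tested.

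**Figure D5:**
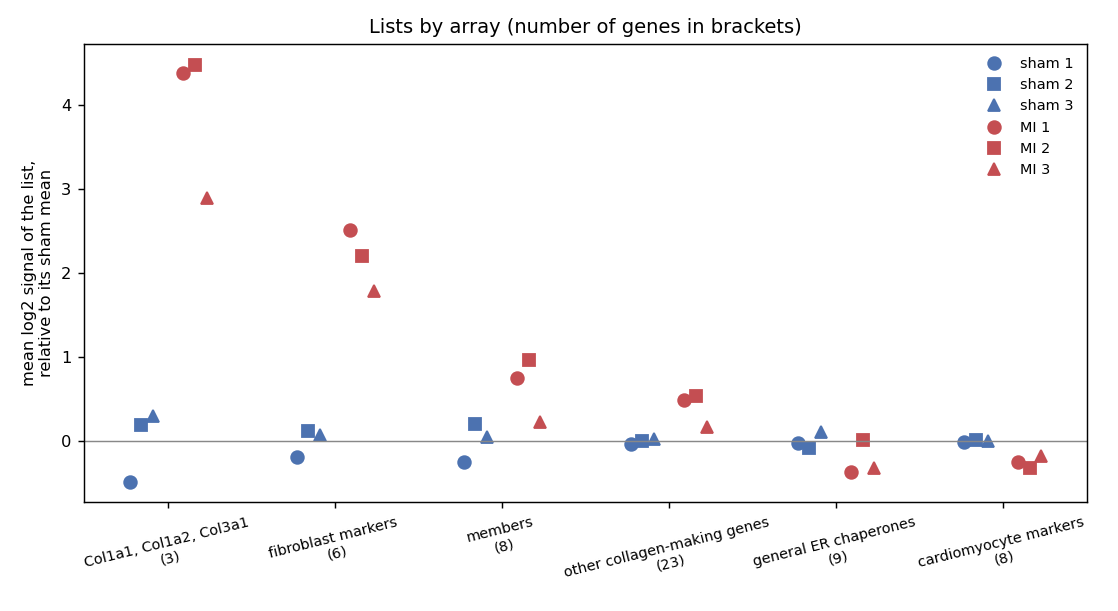
Mean log2 signal of each list relative to its sham mean (vertical axis) in each sham array (blue) and each MI array (red). The collagen chains average 2.89 to 4.47 in MI, the fibroblast markers 1.79 to 2.50 and the 8 genes 0.23 to 0.96.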

How the data were processed

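The deposited values are log2 signals of 72688 probe sets on 6 arrays. The authors made them in Affymetrix Expression Console by RMA + SKETCH, in which probe intensities are quantile normalized. The table is not filtered on low intensity, although the methods mention such a filter, and it holds 0 columns of other samples. After 6732 control probe sets were dropped, 30646 of the remaining 65956 carried 1 symbol, 2168 several and 33142 none in the platform's gene table, whose genome build is not stated. Symbols were updated through RefSeq (GRCm38.p6). limma 3.58.1 under R 4.3.3 (lmFit, eBayes) compared MI with sham, two-sided and with no covariate, and p-values were adjusted by Benjamini-Hochberg over the 32979 probe sets tested. The fit was first tested on simulated data. The number of arrays limits the precision. No pair of arrays shared more than 158 identical values.

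The members and lists were chosen with earlier results of these data known. The genes named are all members, P4hb, the collagen chains and the called members of the lists. The genes of prolyl 3-hydroxylation and Adamts3 were named after their values were seen. The alternatives tried were to drop the filter or set it at the 75th percentile (6.30), the t-test of the methods, the trend and robust options, array weights, centring each array on its median, a quantile normalization, averaging the probe sets of a gene, a block for the replicate number, and leaving out each array. Figures were drawn with Python 3.11.15 and matplotlib 3.10.9.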

Additional observations from a re-analysis of the deposited data

How the results depend on the processing

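The number of the 8 genes called higher, 3 with all arrays, was 1 (Plod2) with no filter, with the t-test of the methods, with arrays centred on the median and after quantile normalization, and 0 to 4 when 1 array was left out. Over the whole array limma called 2180 probe sets, beside 272 with the t-test of the methods, 10760 with array weights and 0 to 4687 with 1 array left out. Of the other collagen-making genes, 3 with all arrays, 0 were called higher with the t-test, 12 with array weights and 0 to 9 with 1 array left out. The deviations of same-numbered arrays from their group means had correlations of -0.29, 0.35 and -0.37, which differ in sign. Deviations from a mean of 3 arrays are tied to each other, so this check cannot show whether same-numbered arrays were handled together. The labels give only the number. With the replicate number as a block limma called 0 probe sets, 0 of the 8 genes and 0 of the other collagen-making genes, with 7078 probe sets at an unadjusted p under 0.05, and the change of each gene was the same. P4ha2 ranged from -0.073 to 0.060 with 1 array left out, changing sign without sham 2. P4ha1, P4ha2, Plod1 and Serpinh1 were called under none of 15 alternatives, Plod2 under 10 of 15, Bmp1 under 5 of 15, Pcolce under 2 of 15 and P4ha3 under 3 of 14, being left untested by the filter at the 75th percentile. The differences that involve Plod3 were not run, since it had no probe set of its own.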

Other observations

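None of the prolyl hydroxylases that act on the hypoxia-inducible factor rather than on collagen was called higher. Egln1, the main oxygen sensor of this family, read 15.17, 15.42 and 15.39 in sham and 14.35, 14.64 and 14.55 in MI, with every MI array below every sham array. Its change was -0.81 (SE 0.12, adjusted p = 0.0236 from limma). Of the 4 genes of this list (Egln1, Egln2, Egln3 and P4htm) it was the only one called. General chaperones of the endoplasmic reticulum, which serve secreted proteins of all kinds, had a median change of -0.17 over 9 tested genes, with none called by limma and no positive change, beside a median of 0.74 for the 8 collagen-processing genes. This contrast depends on how the lists were divided, which was done with earlier results known. P4hb (change 0.52), Ppib (0.75) and Pdia3 (0.37), of which only P4hb was called, were placed among the collagen-making genes.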
